A study of Homo sapiens with 14 samples.

Results

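The genes described here are 10 components of the Notch signaling pathway, chosen by name out of 27819 genes that the count tables have in common. They are the receptors NOTCH1, NOTCH2 and NOTCH3, the ligands JAG1, JAG2 and DLL1, the glycosyltransferase LFNG, the DNA-binding factor RBPJ and the target genes HES1 and HEY1. RNA was sequenced from CWR22RV1, a human prostate cancer cell line, after 72 h of treatment, in 3 libraries with the vehicle DMSO, 3 with Fucotrim I at 30 μM, 2 with Fucotrim II at 60 μM, 3 with SGN-2FF at 100 μM and 3 with P-SiaFNEtoc at 2 μM. Fucotrim I and Fucotrim II are metabolic inhibitors aimed at GMDS, an enzyme of GDP-fucose synthesis, SGN-2FF is a fluorinated fucose that the cell turns into an inhibitor of fucosyltransferases, and P-SiaFNEtoc inhibits sialyltransferases. All libraries came from 1 cell line, the doses differed between the inhibitors, and the 3 DMSO libraries served as the control in every comparison with the vehicle.

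Notch receptors are single-pass membrane proteins whose extracellular EGF-like repeats carry O-linked fucose, added by POFUT1, and the Fringe enzymes LFNG, MFNG and RFNG extend that fucose and thereby change which ligands a receptor responds to. Binding of a Jagged or Delta-like ligand on a neighboring cell exposes the receptor to ADAM proteases and then to γ-secretase, which frees the intracellular domain to bind RBPJ in the nucleus and to switch on genes such as HES1 and HEY1. Because O-fucose is needed on the receptor, the fucosylation inhibitors were set not only against DMSO but also against the sialylation inhibitor P-SiaFNEtoc. The paper reports that its fucosylation inhibitors differed in effectiveness, especially Fucotrim I, and that the Fucotrims also lower GDP-mannose. In the cell line sequenced here, Fucotrim I lowered binding of a fucose-recognizing lectin too little for an inhibitory concentration to be determined. Fucotrim II reached the weaker of the paper's cutoffs for reduced binding, and the fluorinated fucose also reached the stronger cutoff. The paper found the apoptosis induced by the Fucotrims to be independent of reduced fucosylation. The rescue with added fucose behind that result was shown in another prostate cancer cell line. O-fucose on Notch was not measured in these RNA data, so a difference from P-SiaFNEtoc cannot be assigned to loss of fucose.

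Between 12553094 and 19981453 reads were counted on genes in each library. Values per library are CPM (read counts scaled to library size) after TMM scaling of the 14 libraries, and fold changes and adjusted p-values come from edgeR's quasi-likelihood test, with an adjusted p-value under 0.05 over all tested genes taken as a change. The 5 luminal prostate markers KLK3, HOXB13, KRT8, KRT18 and EPCAM summed to between 1190.4 and 1282 CPM in the DMSO libraries, 1479 and 1562 CPM with P-SiaFNEtoc, 1539 and 1629.9 CPM with SGN-2FF, 1849 and 1929 CPM with Fucotrim I, and 1672 and 1988 CPM with Fucotrim II. These sums were mostly KRT8 and KRT18. EPCAM was at 94.0 to 96.5 CPM in DMSO, 85.5 to 94.8 CPM with Fucotrim I and 95.5 to 106 CPM with the other inhibitors. The 3 basal markers reached at most 0.455 CPM in sum and the 3 endothelial markers at most 0.251 CPM. Of the neuroendocrine markers, SYP was at 94.6 to 122 CPM in DMSO, P-SiaFNEtoc, Fucotrim I and SGN-2FF libraries and at 129.7 and 156 CPM with Fucotrim II, while CHGA and INSM1 together reached at most 0.125 CPM. The 4 fibroblast markers summed to 18.7 to 32.7 CPM, mostly COL1A1, and the 3 leukocyte markers to 4.66 to 8.11 CPM, mostly CD68. These marker levels moved with the inhibitors to different degrees, and their part in the results below was not tested. In bulk RNA, fewer cells of a type and less RNA per cell cannot be told apart.

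Of the 10 genes, 8 passed the filter on low counts in each comparison. JAG1 and DLL1 did not. In DMSO, CPM per kilobase of exon was highest for HES1 (12.5 ± 0.78, SD, n = 3), followed by JAG2 (10.3 ± 0.79), NOTCH3 (9.18 ± 0.53), RBPJ (7.40 ± 0.20), NOTCH1 (6.07 ± 0.38), NOTCH2 (2.08 ± 0.06), LFNG (1.79 ± 0.30) and HEY1 (0.85 ± 0.01). The libraries of JAG2 and NOTCH3 overlapped in this level, as did those of NOTCH2 and LFNG, and the order within those pairs is not beyond the spread. The position of RBPJ depended on the length used: its exons together span 15311 bases but its longest transcript 5761, and per kilobase of longest transcript it stood first, at 19.7.

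**Figure D1:**
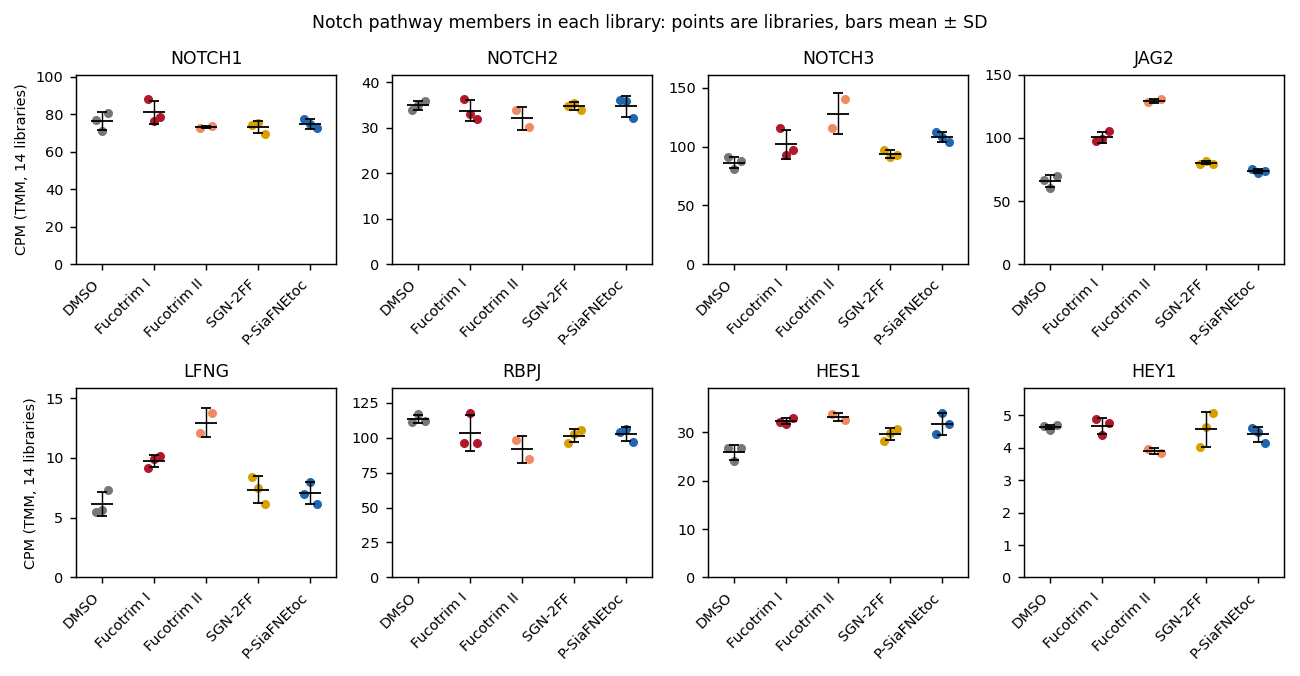
CPM of the 8 tested Notch pathway genes in each of the 14 libraries. Points are libraries, grouped by treatment on the horizontal axis, and bars give the mean and SD. JAG2 lies between 60.4 and 70.2 CPM in DMSO, between 97.6 and 106 CPM with Fucotrim I and at 128 and 131 CPM with Fucotrim II, while NOTCH1 and NOTCH2 overlap between DMSO and every inhibitor.

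Against DMSO, 4 of the 8 tested genes were called with Fucotrim I, all of them higher (NOTCH3, JAG2, LFNG and HES1), where 43.8% of all tested genes changed. With Fucotrim II the same 4 genes were higher and RBPJ was lower, where 51.4% of all genes changed. With SGN-2FF, JAG2 and HES1 were higher and RBPJ lower, and with P-SiaFNEtoc NOTCH3, JAG2 and HES1 were higher and RBPJ lower, where 20.6% and 16.3% of all genes changed. The Fucotrim shares are near those of all genes. With SGN-2FF the count fell to 1 without DMSO replicate 2 or without SGN-2FF replicate 2, and with P-SiaFNEtoc to 2 without DMSO replicate 2. The libraries of the 2 conditions did not overlap for 4, 6, 4 and 4 of the 8 genes with Fucotrim I, Fucotrim II, SGN-2FF and P-SiaFNEtoc, against 52.6%, 67.7%, 36% and 33.7% of all tested genes.

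**Figure D2:**
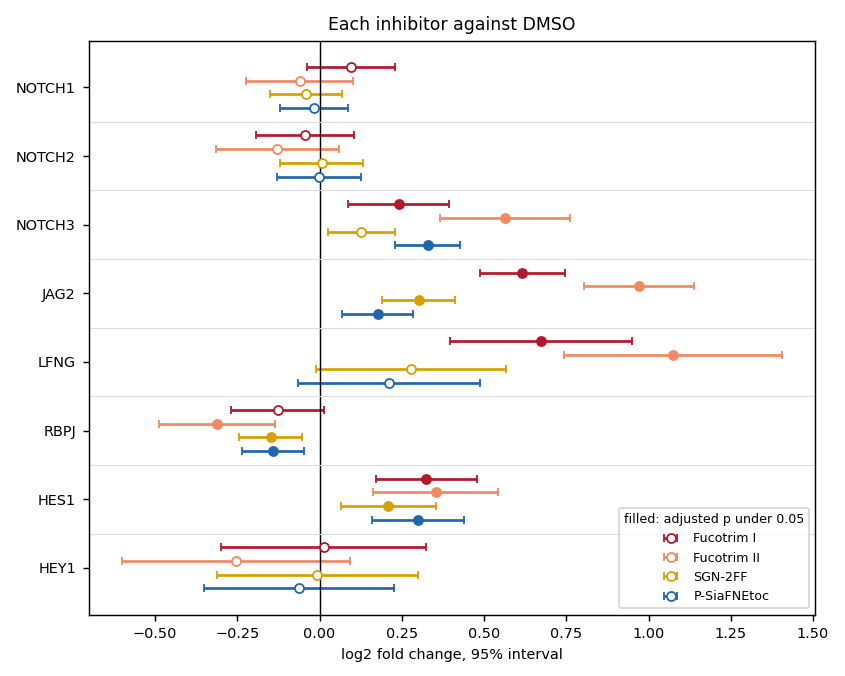
Log2 fold change of each gene in each inhibitor against DMSO, on the horizontal axis, with its 95% interval. Filled points have an adjusted p-value under 0.05 in edgeR. JAG2 and HES1 are above 0 with all 4 inhibitors, LFNG is filled for Fucotrim I (0.67) and Fucotrim II (1.07), and NOTCH1, NOTCH2 and HEY1 have no filled point.

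Among the receptors, NOTCH1 and NOTCH2 were not called with any inhibitor against DMSO, with 0.156 as the smallest unadjusted p in edgeR. NOTCH1 (chromosome 9, 136494433 to 136546048 in hg38, minus strand) was at 76.7, 71.0 and 80.6 CPM in DMSO, 87.9, 76.5 and 78.7 with Fucotrim I, 72.8 and 73.6 with Fucotrim II, 74.5, 75.5 and 69.5 with SGN-2FF, and 77.5, 74.6 and 72.4 with P-SiaFNEtoc. Treated and vehicle libraries overlapped throughout. Its log2 fold changes lay between -0.06 and 0.09, and the 95% interval of the smallest, with Fucotrim II, ran from -0.22 to 0.10. NOTCH2 (chromosome 1, 119911553 to 120100779, minus strand) was at 33.8, 35.0 and 35.8 CPM in DMSO and between 30.2 and 36.2 CPM in the treated libraries, again with overlap. Its log2 fold changes lay between -0.13 and 0.01, and the value with Fucotrim II passed the threshold without Fucotrim II replicate 1 (-0.21, adjusted p = 0.0432 in edgeR). Of the 100-base stretches of NOTCH2 transcripts, 4.87% also occur in the NOTCH2NL and NBPF genes, so its counts are less certain than the others.

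NOTCH3 was the receptor called as changed. It lies on chromosome 19 from 15159038 to 15200995, minus strand, and was at 90.8, 81.0 and 87.3 CPM in DMSO. With Fucotrim II its libraries were at 116 and 140 CPM, with P-SiaFNEtoc at 112, 108 and 104 CPM, with Fucotrim I at 116, 92.4 and 96.8 CPM, and with SGN-2FF at 97.3, 91.0 and 92.6 CPM. None of the treated libraries reached down into the DMSO range. The rise was 0.56 on the log2 scale with Fucotrim II (SE 0.09, adjusted p = 0.000664 in edgeR) and 0.33 with P-SiaFNEtoc (SE 0.05, adjusted p = 1.39e-05), and both kept their call in all 14 alternatives tried. With Fucotrim I it was 0.24 (SE 0.07, adjusted p = 0.0130) and did not pass without DMSO replicate 2 (adjusted p = 0.0504) or without Fucotrim I replicate 1 (0.0745), and it was -0.0040 after the GC correction described below. The value with SGN-2FF was 0.13 (95% interval 0.02 to 0.23, adjusted p = 0.0703), and 0.16 without DMSO replicate 1 (adjusted p = 0.0460).

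Of the 3 ligands, JAG2 alone passed the filter on low counts. It encodes a Jagged ligand (chromosome 14, 105140982 to 105168824, minus strand), and 7.33% of its exon bases overlap an unnamed gene on the same strand. Its DMSO libraries were at 66.9, 60.4 and 70.2 CPM. Those of Fucotrim I were at 97.6, 98.8 and 106 CPM, those of Fucotrim II at 128 and 131, those of SGN-2FF at 79.4, 81.9 and 79.8, and those of P-SiaFNEtoc at 75.7, 72.4 and 74.2. No treated library fell into the DMSO range, and the Fucotrim libraries were also above those of the other inhibitors. JAG2 rose 1.53-fold with Fucotrim I (95% interval 1.40 to 1.68, adjusted p = 1.61e-07 in edgeR), 1.96-fold with Fucotrim II (1.74 to 2.20, adjusted p = 1.92e-05) and 1.23-fold with SGN-2FF (1.14 to 1.33, adjusted p = 0.000192), and these calls held in all 14 alternatives of each comparison. With P-SiaFNEtoc the rise was 1.13-fold (1.05 to 1.22, adjusted p = 0.0192) and did not pass without DMSO replicate 2 (adjusted p = 0.141), without P-SiaFNEtoc replicate 1 (0.0766), with DESeq2 (0.0531), in 1 fit of all libraries (0.0721) or after GC correction (0.343).

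The other ligands on the list were at or near 0 counts. JAG1, the second Jagged gene, had between 0 and 7 counts per library, equal to at most 0.50 CPM, and DLL1, a Delta-like ligand, had 0 counts in all 14 libraries, where 3 counts is the upper limit that a count of 0 allows. For DLL1 that covers counting error only. No fold change is given for either gene.

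LFNG, the Fringe enzyme of the list, rose with both Fucotrims. It lies on chromosome 7 from 2512529 to 2529177, plus strand. Its level was 5.50, 5.61 and 7.33 CPM in DMSO, 9.18, 9.93 and 10.1 CPM with Fucotrim I, and 12.1 and 13.8 CPM with Fucotrim II. The Fucotrim II libraries were above those of Fucotrim I, and both were above DMSO. SGN-2FF gave 8.41, 7.49 and 6.15 CPM and P-SiaFNEtoc 7.02, 8.01 and 6.18 CPM, which overlapped the DMSO range. The rise was 1.59-fold with Fucotrim I (95% interval 1.32 to 1.93, adjusted p = 0.000365 in edgeR) and 2.11-fold with Fucotrim II (1.67 to 2.65, adjusted p = 0.000322), and both held in all 14 alternatives. With SGN-2FF the ratio was 1.21 (0.99 to 1.48, adjusted p = 0.165) and with P-SiaFNEtoc 1.16 (0.96 to 1.40, adjusted p = 0.303).

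The promoters of JAG2 and LFNG are shown because these were the members with the widest spread between conditions, 0.98 and 1.07 on the log2 scale between the highest and lowest group mean. Each window holds 250 bases before and 50 bases after an annotated start in RefSeq (GRCh38.p14), 5′ to 3′ on the strand of the gene, at chr14:105168727-105169026 for JAG2 and chr7:2512279-2512578 for LFNG, which has a second annotated start.
JAG2: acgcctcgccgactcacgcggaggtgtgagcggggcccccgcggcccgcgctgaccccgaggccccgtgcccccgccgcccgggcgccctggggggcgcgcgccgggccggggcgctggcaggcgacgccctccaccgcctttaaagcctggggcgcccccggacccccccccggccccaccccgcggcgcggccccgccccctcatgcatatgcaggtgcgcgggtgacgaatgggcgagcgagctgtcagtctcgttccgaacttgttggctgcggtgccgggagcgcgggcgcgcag
LFNG: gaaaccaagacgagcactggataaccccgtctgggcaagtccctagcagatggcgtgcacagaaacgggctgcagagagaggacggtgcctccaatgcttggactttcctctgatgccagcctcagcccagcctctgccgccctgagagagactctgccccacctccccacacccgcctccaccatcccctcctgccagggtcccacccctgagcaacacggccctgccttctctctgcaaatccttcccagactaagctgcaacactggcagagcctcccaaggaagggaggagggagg
Neither window holds GTGGGAA, the core letters of the RBPJ motif, on either strand, and neither holds CACNAG, the N box that HES proteins bind. The window at the second start of LFNG, chr7:2517613-2517912, holds 1 match to CACNAG. Among 34796 promoter windows of the same length, 6.23% hold GTGGGAA and 38% hold CACNAG. The G and C content was 79.7% in the JAG2 window and 62.3% in the LFNG window.

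RBPJ, the factor through which the cleaved receptor acts on DNA, was lower than in DMSO with 3 inhibitors. It lies on chromosome 4 from 26163455 to 26435131, plus strand. DMSO libraries were at 111, 117 and 112 CPM, Fucotrim II at 98.5 and 84.7, SGN-2FF at 96.2, 102 and 105, P-SiaFNEtoc at 104, 106 and 96.8, and Fucotrim I at 95.8, 118 and 96.1. Only Fucotrim I had a library inside or above the DMSO range, its replicate 2. RBPJ fell by 0.31 on the log2 scale with Fucotrim II (SE 0.08, adjusted p = 0.00843 in edgeR), by 0.15 with SGN-2FF (SE 0.05, adjusted p = 0.0233) and by 0.14 with P-SiaFNEtoc (SE 0.05, adjusted p = 0.0314). With Fucotrim I the value was -0.13 (adjusted p = 0.138), and without replicate 2 of Fucotrim I it was -0.24 (adjusted p = 0.00124). The call with SGN-2FF was lost without DMSO replicate 2 (adjusted p = 0.0706), SGN-2FF replicate 1 (0.142) or SGN-2FF replicate 2 (0.0761) and in 1 fit of all libraries (0.160), and the call with P-SiaFNEtoc without DMSO replicate 2 (0.104), DMSO replicate 3 (0.0627) or P-SiaFNEtoc replicate 3 (0.132), with DESeq2 (0.0666) and in 1 fit of all libraries (0.242). With the replicate numbers as a block, the Fucotrim II call was lost (0.0537) and Fucotrim I gained one (0.0106). After GC correction none of the 4 comparisons passed, and the values with Fucotrim I and Fucotrim II turned to 0.06 and 0.04.

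HES1, a transcriptional repressor and a standard readout of Notch activity, was higher with every inhibitor, the sialylation inhibitor included. It is on chromosome 3 from 194136148 to 194138732, plus strand. Its promoter is shown because it is the target gene that changed. The window, chr3:194135898-194136197 on the plus strand (RefSeq, GRCh38.p14, 5′ to 3′), holds 1 match to GTGGGAA, which is in capitals and begins 85 bases before the start, and 4 matches to CACNAG.
HES1: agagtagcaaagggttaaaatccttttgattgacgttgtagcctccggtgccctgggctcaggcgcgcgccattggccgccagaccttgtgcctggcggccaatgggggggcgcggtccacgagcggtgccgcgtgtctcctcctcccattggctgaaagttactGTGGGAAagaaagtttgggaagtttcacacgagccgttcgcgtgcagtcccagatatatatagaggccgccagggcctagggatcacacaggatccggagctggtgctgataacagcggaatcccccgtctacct
HES1 was at 26.8, 24.0 and 26.7 CPM in DMSO, 32.2, 31.7 and 32.9 CPM with Fucotrim I, 33.7 and 32.5 CPM with Fucotrim II, 28.2, 29.8 and 30.7 CPM with SGN-2FF, and 29.5, 34.1 and 31.7 CPM with P-SiaFNEtoc. All 11 treated libraries were above the 3 vehicle libraries. The rise was 1.25-fold with Fucotrim I (95% interval 1.13 to 1.39, adjusted p = 0.00141 in edgeR), 1.28-fold with Fucotrim II (1.12 to 1.46, adjusted p = 0.00676) and 1.23-fold with P-SiaFNEtoc (1.12 to 1.36, adjusted p = 0.00295), each held in 14 of 14 alternatives. With SGN-2FF it was 1.16-fold (1.05 to 1.28, adjusted p = 0.0331) and did not pass in 6 alternatives: DESeq2 (adjusted p = 0.112), 1 fit of all libraries (0.0814), and without DMSO replicate 2 (0.146), DMSO replicate 3 (0.0580), SGN-2FF replicate 2 (0.122) or SGN-2FF replicate 3 (0.0927).

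HEY1, the other target gene, was not called with any inhibitor. This repressor of the same family (chromosome 8, 79762371 to 79767857, minus strand) was at 4.67, 4.56 and 4.70 CPM in DMSO, 4.88, 4.39 and 4.77 with Fucotrim I, 3.97 and 3.85 with Fucotrim II, 4.01, 4.64 and 5.09 with SGN-2FF, and 4.62, 4.48 and 4.16 with P-SiaFNEtoc. Both Fucotrim II libraries were below DMSO, with a log2 difference of -0.25 (95% interval -0.60 to 0.09, adjusted p = 0.198 in edgeR). At this depth the intervals of the other 3 comparisons reached at most 0.35 in either direction on the log2 scale.

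The fucosylation inhibitors were next compared with P-SiaFNEtoc directly, without the DMSO libraries. These comparisons set different doses against each other, 30, 60 and 100 μM against 2 μM. With Fucotrim I, JAG2 was 1.36-fold (SE on the log2 scale 0.06, adjusted p = 1.59e-07 in edgeR) and LFNG 1.38-fold (SE 0.13, adjusted p = 0.00510) above P-SiaFNEtoc, while 34.6% of all genes differed, 17.5% higher and 17.1% lower. With Fucotrim II, JAG2 was 1.74-fold (SE 0.06, adjusted p = 1.43e-05) and LFNG 1.83-fold (SE 0.14, adjusted p = 0.000705) higher, while 43.7% of all genes differed, 22.1% higher and 21.6% lower. These 4 calls held in all 14 alternatives. Libraries did not overlap those of P-SiaFNEtoc for 2, 4 and 2 of the 8 genes in the order Fucotrim I, II and SGN-2FF, against 44.5%, 62.8% and 28.6% of all tested genes.

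NOTCH3 differed from P-SiaFNEtoc with 2 of the inhibitors, in opposite directions before GC correction. It was lower by 0.20 on the log2 scale with SGN-2FF (log2 difference -0.20, SE 0.05, adjusted p = 0.00201 in edgeR), the only one of the 8 genes to differ there, where 13% of all genes did, 7% higher and 5.95% lower. That call was lost in 1 fit of all 14 libraries (-0.21, adjusted p = 0.162). It was higher by 0.24 with Fucotrim II (SE 0.08, adjusted p = 0.0404), but not without Fucotrim II replicate 2 (0.10, adjusted p = 0.214) or without any 1 of the 3 P-SiaFNEtoc libraries (adjusted p = 0.0840, 0.113 and 0.160), nor with the replicate numbers as a block (0.0928), and after the GC correction described below the direction turned (-0.060, adjusted p = 0.491). With Fucotrim I the difference was -0.09 (adjusted p = 0.337), without Fucotrim I replicate 1 it was -0.19 (adjusted p = 0.0112), and after GC correction -0.23 (adjusted p = 0.00238).

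HES1 was not called against P-SiaFNEtoc with any fucosylation inhibitor. The log2 differences were 0.03 with Fucotrim I (95% interval -0.13 to 0.18), 0.06 with Fucotrim II (-0.13 to 0.25) and -0.09 with SGN-2FF (-0.23 to 0.05). NOTCH1, NOTCH2, HEY1 and RBPJ had no call either, except that leaving out 1 library gave one for NOTCH1 with Fucotrim I (0.16 without its replicate 2, adjusted p = 0.0436 in edgeR) and for RBPJ with Fucotrim II (-0.28 without its replicate 1, adjusted p = 0.000734), and that GC correction, described below, gave one for NOTCH1 with Fucotrim II (-0.34, adjusted p = 0.00123). JAG2 with SGN-2FF was 1.09-fold (adjusted p = 0.0899), with all 3 libraries above those of P-SiaFNEtoc.

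**Figure D3:**
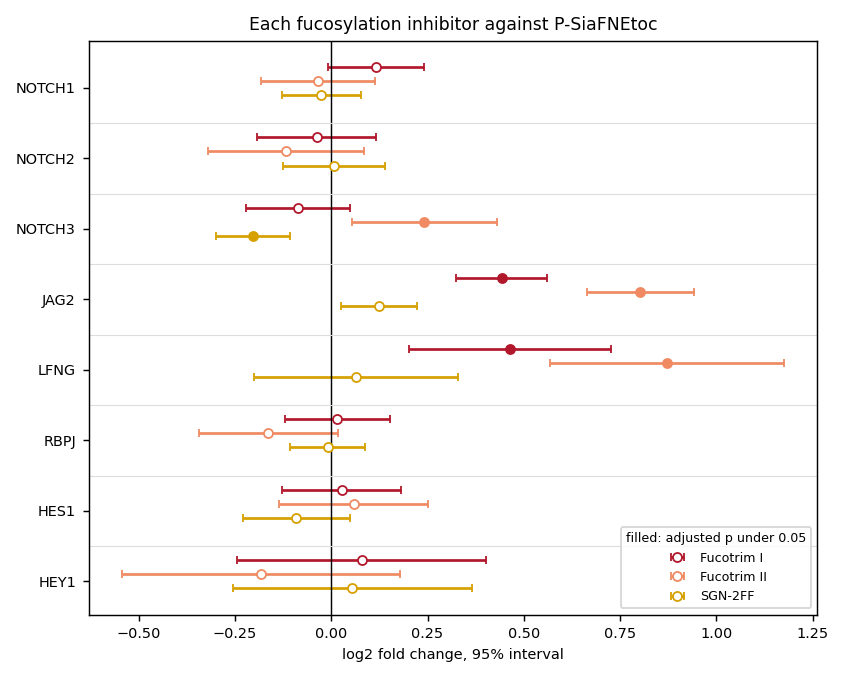
Log2 fold change of each gene in the 3 fucosylation inhibitors against P-SiaFNEtoc, with 95% intervals. Filled points have an adjusted p-value under 0.05 in edgeR. JAG2 and LFNG are filled and above 0 for Fucotrim I and Fucotrim II, NOTCH3 is filled on opposite sides of 0 for Fucotrim II (0.24, turned by GC correction) and SGN-2FF (-0.20), and the HES1 intervals include 0.

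The direction of change across all genes followed the G and C content (GC) of their transcripts. With Fucotrim II the median log2 fold change against DMSO was -0.33 in genes below 40% GC and 0.37 in genes from 60% to 65%. With Fucotrim I the medians were -0.18 and 0.23, with SGN-2FF -0.07 and 0.09, and with P-SiaFNEtoc -0.09 and 0.10. The longest transcripts of JAG2 (64.1%), NOTCH1 (63.3%), NOTCH3 (63.1%) and LFNG (63.1%) lie in the higher of these ranges, RBPJ (36.8%) in the lower, and NOTCH2 (49.4%), HES1 and HEY1 between them. JAG2 and LFNG were above the median of their GC range with all 4 inhibitors and NOTCH1 was below it.

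A correction for GC was therefore added after the data had been seen. HES1 was nearly unmoved by it, with log2 fold changes of 0.32, 0.33, 0.20 and 0.29 for Fucotrim I, Fucotrim II, SGN-2FF and P-SiaFNEtoc, all still called. JAG2 became 0.36, 0.54, 0.21 and 0.07, called with all but P-SiaFNEtoc, and LFNG became 0.43 and 0.67 with the Fucotrims, both called. NOTCH3 kept its call with Fucotrim II (0.16, adjusted p = 0.0457 in edgeR) and P-SiaFNEtoc (0.23, adjusted p = 0.000472). NOTCH1, not called without the correction, was lower by 0.47 on the log2 scale with Fucotrim II (-0.47, adjusted p = 0.000132), by 0.15 with Fucotrim I (-0.15, adjusted p = 0.0172) and by 0.13 with SGN-2FF (-0.13, adjusted p = 0.0237). Against P-SiaFNEtoc the corrected log2 differences of JAG2 and LFNG were 0.29 and 0.32 with Fucotrim I and 0.48 and 0.57 with Fucotrim II, all called. The cause of the GC pattern was not tested.

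**Figure D4:**
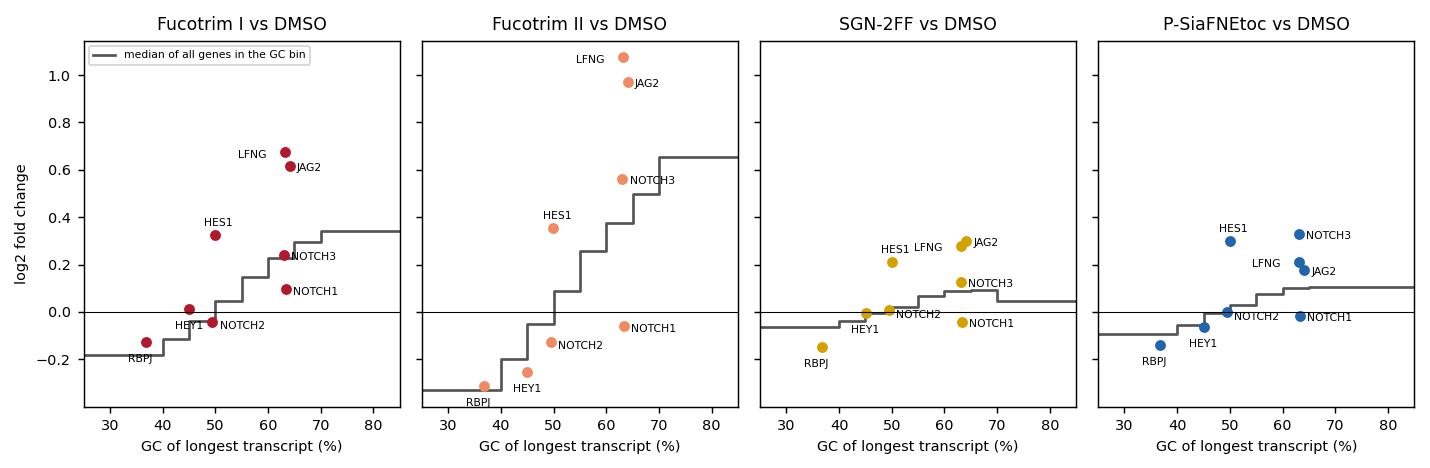
Log2 fold change against DMSO of the 8 genes (points) over the GC content of their longest transcript, for each inhibitor. The step line is the median of all tested genes in a GC range, and with Fucotrim II it climbs from -0.33 below 40% to 0.37 between 60% and 65%. HES1, LFNG and JAG2 are above the line in each panel and NOTCH1 is below it.

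The rest of the pathway was followed through a list of 64 other genes of receptor glycosylation, cleavage, nuclear complexes, endocytosis and turnover, further ligands, and HES and HEY relatives. With Fucotrim I, 16 of 57 tested genes rose and 12 fell (median log2 fold change 0.03), and with Fucotrim II 21 of 59 rose and 13 fell (median 0.12). With SGN-2FF 9 of 57 rose and 7 fell (median -0.02), and with P-SiaFNEtoc 9 of 58 rose and 2 fell (median 0.00). The median of all tested genes was at most 0.01 in each fit, and for all genes the shares that rose were 21.6%, 25.6%, 11.5% and 9.02% and the shares that fell 22.1%, 25.7%, 9.08% and 7.33%. The list thus changed in both directions with every inhibitor. Without Fucotrim I replicate 3 the list had 18 calls in place of 28, and with SGN-2FF it had 9, 10 and 7 in place of 16 without DMSO replicate 3, SGN-2FF replicate 1 and SGN-2FF replicate 2.

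**Figure D5:**
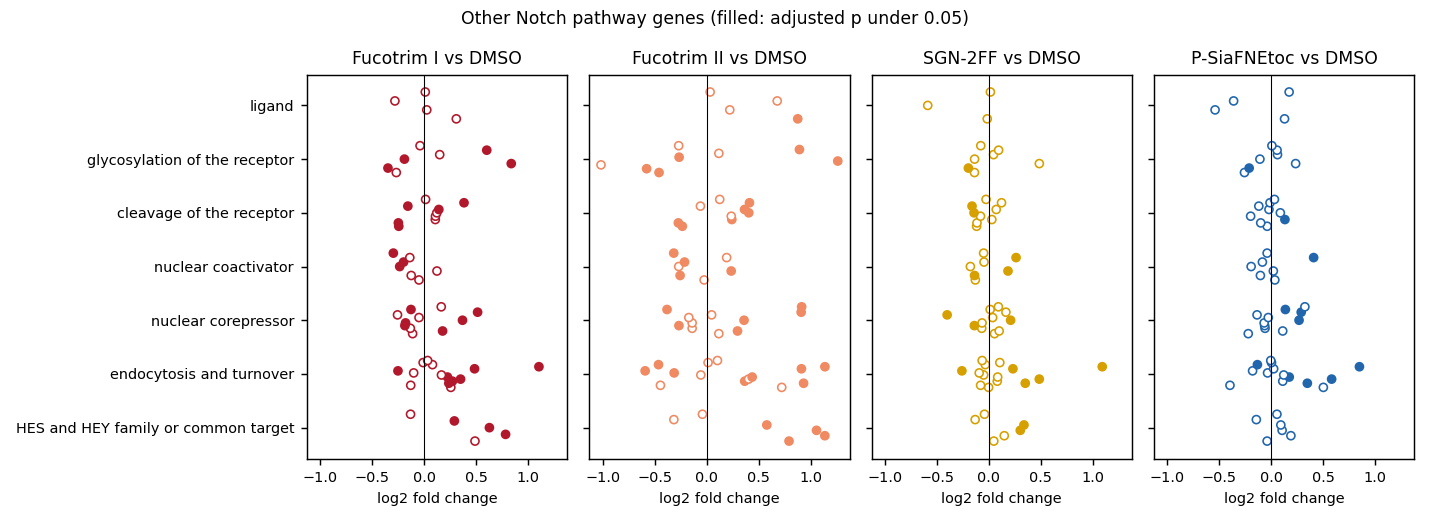
Log2 fold change against DMSO of the tested genes of the pathway list, by role in the pathway (rows), for each inhibitor. Each point is a gene and filled points have an adjusted p-value under 0.05 in edgeR. Filled points lie on both sides of 0 in each panel, with 16 above and 12 below for Fucotrim I and 21 above and 13 below for Fucotrim II.

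NEURL1, a ubiquitin ligase that acts on Notch ligands, was among the largest changes of the list with each inhibitor. It was at 11.6, 10.3 and 11.8 CPM in DMSO, 27.5, 22.2 and 22.5 with Fucotrim I, 23.3 and 26.3 with Fucotrim II, 24.6, 23.6 and 22.9 with SGN-2FF, and 19.0, 21.1 and 20.5 with P-SiaFNEtoc. Treated and vehicle libraries were apart with each inhibitor. The log2 fold changes were 1.10 (SE 0.10), 1.14 (SE 0.10), 1.09 (SE 0.08) and 0.85 (SE 0.09) in that order, with adjusted p-values in edgeR from 1.63e-10 to 3.73e-05, and after GC correction 0.83, 0.68, 1.00 and 0.74, all called.

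The Fringe relatives of LFNG also rose with the Fucotrims. MFNG rose by 0.84 on the log2 scale with Fucotrim I (SE 0.24, adjusted p = 0.00680 in edgeR) and 1.26 with Fucotrim II (SE 0.24, adjusted p = 0.00215), from a low level of 1.32 to 2.06 CPM in DMSO. RFNG, at 43.4 to 45.6 CPM in DMSO, was at 67.1 to 68.3 CPM with Fucotrim I, a rise of 0.60 (SE 0.06), and at 79.7 and 86.5 CPM with Fucotrim II, a rise of 0.89 (SE 0.07). With SGN-2FF and P-SiaFNEtoc the log2 values of MFNG were 0.48 and 0.23 and those of RFNG 0.09 and 0.06, none called. After GC correction both genes kept their calls with both Fucotrims, at 0.65 and 0.96 for MFNG and 0.29 and 0.38 for RFNG. Over the glycosylation group, 2 of 7 tested genes rose and 2 fell with Fucotrim I, 2 of 8 rose and 3 fell with Fucotrim II, and 1 of 7 fell with SGN-2FF and with P-SiaFNEtoc. The shares of all genes that rose and fell were 21.6% and 22.1% with Fucotrim I and 25.6% and 25.7% with Fucotrim II, and 9.08% and 7.33% fell with SGN-2FF and P-SiaFNEtoc. POFUT1, which adds the O-fucose and was picked out after its values were seen, was among those that fell, by 0.19 with Fucotrim I (adjusted p = 0.0288) and 0.26 with Fucotrim II (adjusted p = 0.0204). POFUT1 was at 87.9, 80.4 and 78.6 CPM in DMSO. With Fucotrim I it was at 78.7, 72.5 and 64.6 CPM, which overlapped DMSO, and with Fucotrim II at 64.5 and 73.2 CPM. Its values after GC correction or without single libraries are not given here.

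Among relatives of HES1, HES4 rose by 0.78 with Fucotrim I (SE 0.12, adjusted p = 0.00111 in edgeR) and 1.14 with Fucotrim II (SE 0.12, adjusted p = 8.16e-05), and HES6 by 0.63 and 1.06 (SE 0.11 for both). DMSO libraries of HES4 were at 74.4 to 95.1 CPM, against 132 to 168 CPM with Fucotrim I and 171 and 217 CPM with Fucotrim II. These are among the most GC-rich transcripts of the list (73.9% and 68.4%), and the corrected values were 0.34 and 0.39 for HES4 and 0.29 and 0.50 for HES6, all called. HES7 rose by 0.58 with Fucotrim II (SE 0.07, adjusted p = 0.000145), 0.34 with SGN-2FF (SE 0.05, adjusted p = 4.17e-05) and 0.29 with Fucotrim I (SE 0.08, adjusted p = 0.00677), the last not called after GC correction (0.041, adjusted p = 0.789). With SGN-2FF, HES6 rose by 0.30 (SE 0.10, adjusted p = 0.0332). The HES6 call was lost without DMSO replicate 2 (adjusted p = 0.161), DMSO replicate 3 (0.0709), SGN-2FF replicate 1 (0.174) or SGN-2FF replicate 2 (0.0965), with DESeq2 (0.108), after GC correction (0.0959) and in 1 fit of all libraries (0.0746). In the group of HES and HEY relatives and common targets, 3 of 5 tested genes rose with Fucotrim I, 4 of 6 with Fucotrim II, 2 of 6 with SGN-2FF and 0 of 6 with P-SiaFNEtoc, where 21.6%, 25.6%, 11.5% and 9.02% of all genes rose. NRARP, a common target of that group picked out after its values were seen, was not among the genes that rose. It was at 48.7, 43.2 and 47.0 CPM in DMSO, 42.3, 41.1 and 43.2 with Fucotrim I, and 42.0 and 48.4 with Fucotrim II. For P-SiaFNEtoc, edgeR and DESeq2 had 0 of the 6 tested genes of the group at an unadjusted p under 0.05 and limma-voom had 1. After adjustment each of these tools called 0.

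Among nuclear partners and turnover factors, the Groucho corepressor gene TLE2 rose by 0.51 with Fucotrim I (SE 0.09, adjusted p = 6.86e-05 in edgeR), 0.91 with Fucotrim II (SE 0.10, adjusted p = 8.4e-05) and 0.29 with P-SiaFNEtoc (SE 0.08, adjusted p = 0.00986), the latter not called without P-SiaFNEtoc replicate 2 (adjusted p = 0.0591) or after GC correction (0.122). Its relative TLE4 rose by 0.91 with Fucotrim II (SE 0.21, adjusted p = 0.00496), from a low level of 1.61 to 1.75 CPM in DMSO. TLE1 fell by 0.40 with SGN-2FF (SE 0.13, adjusted p = 0.0314), a call lost without DMSO replicate 3 (0.131) or SGN-2FF replicate 2 (0.192), with DESeq2 (0.112) and in 1 fit of all libraries (0.0511). The Deltex genes DTX3 and DTX4, which encode ubiquitin ligases of Notch turnover, rose by 0.35 and 0.48 with SGN-2FF and by 0.35 and 0.58 with P-SiaFNEtoc, and DTX3 by 0.93 with Fucotrim II. With Fucotrim I the values were 0.24 for DTX3 (adjusted p = 0.0355) and 0.35 for DTX4 (adjusted p = 0.0205), neither called after GC correction, and DTX4 with Fucotrim II was at 0.40 (adjusted p = 0.0544). The coactivator MAML3 rose by 0.41 (SE 0.07) with P-SiaFNEtoc and by 0.26 (SE 0.07, adjusted p = 0.00633) with SGN-2FF. In the order Fucotrim I, Fucotrim II, SGN-2FF and P-SiaFNEtoc, 3, 4, 1 and 3 of 11 corepressors rose and 3, 2, 2 and 0 fell. Of 7 tested coactivators, 0, 1, 2 and 1 rose and 3, 3, 1 and 0 fell. Of 14 endocytosis and turnover genes, 6, 5, 4 and 4 rose and 1, 3, 1 and 1 fell. For all genes the shares that rose were 21.6%, 25.6%, 11.5% and 9.02%, and those that fell 22.1%, 25.7%, 9.08% and 7.33%.

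Among the proteases of receptor cleavage, looked up after the values were seen, ADAM10 and ADAM17 fell and the γ-secretase gene PSEN2 rose with the Fucotrims. ADAM10 fell by 0.24 and 0.23 on the log2 scale with Fucotrim I and Fucotrim II and ADAM17 by 0.25 and 0.27, with adjusted p-values in edgeR from 0.00241 to 0.0353. PSEN2 rose by 0.38 (adjusted p = 0.000205) and 0.41 (adjusted p = 0.00201). With SGN-2FF and P-SiaFNEtoc these genes were not called, with log2 values between -0.12 and 0.12. Over the cleavage group, 2 of 9 genes rose and 3 fell with Fucotrim I, where 21.6% and 22.1% of all genes did. With Fucotrim II 4 of 9 rose and 2 fell, against 25.6% and 25.7%. Of the exon bases of PSEN2, 38.7% overlap another gene on the same strand. Values of these 3 genes after GC correction or without single libraries are not given here.

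Over the 14 libraries, the genes whose log2 CPM followed JAG2 most closely were B4GALNT4 (Pearson r = 0.99), RAB17 (0.99) and GRIN1 (0.99), and those closest to LFNG were FHIP2B (0.96), RNF166 (0.96) and NADK (0.95), out of 11835 genes compared. The 14 points share their treatments, so a gene that is highest with Fucotrim II and lowest in DMSO scores high, and the values are given as a description.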

How the data were processed

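RNA-seq counts of 14 CWR22RV1 libraries were analysed. In Galaxy, the authors used Cutadapt for trimming, HISAT2 for alignment of the single reads to hg38 and featureCounts for counting. The deposited values are raw counts, whole numbers per gene, in 1 table per inhibitor. The DMSO libraries are repeated in each table, and their counts were identical over the 27819 genes that the 4 tables share. The annotation release, strand setting and treatment of reads that map to several places are not given in the sources used here. The SGN-2FF table holds no symbols, and its genes were matched by NCBI gene number. Doses and the treatment time come from the methods of the paper. The paper gives 3 biological repeats for each condition, while 2 Fucotrim II libraries were analysed here.

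The 10 genes, the list of 64 pathway genes and the tests were chosen with earlier results of these data known. Each comparison was fitted alone with edgeR 4.0.16 in R 4.3.3 (filterByExpr with a minimum count of 10 and a minimum total of 15, TMM, robust quasi-likelihood test), with Benjamini-Hochberg adjustment over all tested genes. The method was tested on simulated counts with 200 changed genes. Many more genes changed in these data, a condition that the simulation did not cover. Named pathway genes were the called genes with the 6 largest absolute fold changes in each comparison with DMSO, and the 3 genes most correlated with each of the 2 members that varied most. Alternatives were limma-voom (limma 3.58.1), DESeq2 1.42.0, DESeq2's size factors, other filters, 1 fit of all libraries, a replicate block and leaving out each library. A GC correction, fitted with the GC of the longest transcript, was added after seeing the data. A few marker and pathway genes are not reported here by name. No replicates held identical counts. Positions are from GENCODE on hg38, and promoters from RefSeq, which had no entry used here for DLL1 and HEY1. Precision is limited by the number of libraries and, for JAG1, DLL1, HEY1 and LFNG, by counts. Figures were drawn with matplotlib.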

Additional observations from a re-analysis of the deposited data

How the results depend on the processing

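The calls of JAG2, LFNG and HES1 with both Fucotrims against DMSO, and of JAG2 and LFNG against P-SiaFNEtoc, held in all 14 alternatives of each comparison. Member calls that were lost on leaving out 1 library were small, of 0.14 to 0.24 on the log2 scale in either direction. With 1 library left out in turn, the number of called members ranged from 3 to 5 (Fucotrim I), 5 to 6 (Fucotrim II), 1 to 4 (SGN-2FF) and 2 to 4 (P-SiaFNEtoc) against DMSO, and against P-SiaFNEtoc from 2 to 3 (Fucotrim I) and 2 to 4 (Fucotrim II), with 1 throughout for SGN-2FF. The pathway list ranged from 18 to 28, 27 to 40, 7 to 19 and 8 to 12 calls. The libraries concerned are named in the report, and the cause was not tested.

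In 1 fit of all 14 libraries, the called members were 1 with SGN-2FF and 2 with P-SiaFNEtoc, the pathway list had 9 and 6 calls, and the comparison of SGN-2FF with P-SiaFNEtoc had 0 called members, with 1 of 8 at an unadjusted p under 0.05, where edgeR on those groups alone, limma-voom and DESeq2 each called 1. DESeq2 called 2 members with P-SiaFNEtoc. GC correction left 2 members and 7 list genes called with P-SiaFNEtoc and 2 members between SGN-2FF and P-SiaFNEtoc. Over all genes, 39.5%, 46.1%, 23.6% and 12% were called after it in the 4 comparisons with DMSO.

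Directions that turned were all of values not called under the alternative, apart from NOTCH1 with Fucotrim I after GC correction (-0.15). The others after GC correction, on the log2 scale, were NOTCH3 (-0.0040) and RBPJ (0.059) with Fucotrim I, RBPJ with Fucotrim II (0.041), HEY1 with SGN-2FF (0.015), and against P-SiaFNEtoc NOTCH1 with Fucotrim I (-0.031), and NOTCH3 (-0.060) and RBPJ (0.083) with Fucotrim II. Without a filter HEY1 with Fucotrim I was -0.00073 and NOTCH2 with SGN-2FF -0.0034, and in 1 fit of all libraries the latter was -0.0062. Leaving out 1 library turned values near 0. Against DMSO the ranges were -0.016 to 0.059 (HEY1, Fucotrim I), -0.083 to 0.073 (HEY1, SGN-2FF), -0.022 to 0.022 (NOTCH2, SGN-2FF), -0.064 to 0.023 (NOTCH1, P-SiaFNEtoc) and -0.038 to 0.048 (NOTCH2, P-SiaFNEtoc). Against P-SiaFNEtoc they were -0.027 to 0.078 (HES1, Fucotrim I), -0.093 to 0.074 (RBPJ, Fucotrim I) and, with SGN-2FF, -0.052 to 0.0083 (NOTCH1), -0.046 to 0.041 (NOTCH2), -0.019 to 0.14 (HEY1), -0.030 to 0.17 (LFNG) and -0.050 to 0.027 (RBPJ).

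Whether the replicate numbers pair the samples was not settled. In comparisons of 3 against 3, the deviations of same-numbered libraries had correlations from -0.16 to 0.26. Those of Fucotrim I with DMSO were all above 0, at 0.22, 0.26 and 0.025. For Fucotrim II, whose title numbers differ from those in the library names, the correlations with DMSO were -0.31 and -0.41 by title and 0.41 and 0.16 by library name. With 2 libraries the deviations mirror each other, so the numberings are not separate evidence. With the title numbers as a replicate block, RBPJ gained a call with Fucotrim I (adjusted p = 0.0106 in edgeR) and lost it with Fucotrim II (0.0537), NOTCH3 lost its call between Fucotrim II and P-SiaFNEtoc (0.0928), the pathway list had 22 calls with Fucotrim II, and no other member changed. With the library name numbers no member call changed. A planned count of O-fucose motifs in the proteins was not run, since no protein table was used here.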
